A study of Homo sapiens with 21 samples.

Results

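The lysosome genes described here are 33 genes that code for proteins of the lysosome or for proteins that act on it, chosen by symbol from the 23201 gene symbols in the table. They comprise 5 membrane proteins, 8 proteases, 7 glycosidases, 5 proteins of lipid handling, 4 subunits of the proton pump, and 4 regulators and other lysosome-linked proteins. All 33 were found, and all 33 were among the 13343 genes with a mean of at least 10 normalized reads that were tested. RNA was sequenced from HMLE, an immortalized cell line derived from human mammary epithelium, left untreated (d0) or treated with TGFβ, a cytokine that induces epithelial to mesenchymal transition (EMT), for 1 (d1), 4 (d4), 7 (d7), 10 (d10), 15 (d15) or 20 (d20) days, with 3 libraries per timepoint and 21 in all. Wells were seeded at an equal density, and the study describes the libraries of a timepoint as biological triplicates. Every treated day was compared with the same 3 untreated libraries. Untreated cells cultured for the same number of days were not analysed here, so days of TGFβ and days in culture cannot be told apart. All libraries came from a single cell line, and p-values measure the spread between these libraries only.

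Lysosomes are acidic organelles in which hydrolases break down proteins, glycans and lipids delivered by endocytosis, by autophagy and from the secretory route. A proton pump, the V-ATPase, acidifies the lumen, and heavily glycosylated membrane proteins such as LAMP1 and LAMP2 line its wall. Many lysosome genes carry a short E-box element near the transcription start that is bound by TFEB and its relatives TFE3 and MITF, which enter the nucleus when mTORC1 is inactive. Cells that invade tissue can also secrete lysosomal proteases, and cathepsins are known for their part in matrix breakdown.

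The reads recovered from the table totalled between 18847917 and 22667754 per library. Over the 33 lysosome genes the root mean square log2 difference between libraries of a timepoint was 0.09 to 0.24, in the 19 pairs without the third d7 library. That library, named by its order among the d7 columns, stood apart from the other d7 libraries with differences of 0.60 and 0.55, and d7 counts, medians and log2 fold changes are therefore given with and without it. Epithelial markers were detected in every library. The 7 basal epithelial markers summed to between 226024 and 726891 normalized reads, and 5 luminal epithelial markers to between 16180 and 25959, sums that a few genes can carry. FN1, an extracellular matrix protein of mesenchymal cells, rose from a mean of 4243 normalized reads at d0 to 539309 at d20. Because a lysosome gene can be a macrophage gene, 11 macrophage and leukocyte markers were read as well. PTPRC, AIF1, TYROBP, C1QA and C1QB reached at most 1 read in any library, whereas CSF1R, the receptor for colony stimulating factor, reached 1383. The highest reads of CD14, LYZ, FCER1G, ITGAM and MS4A7 were 59, 27, 9, 7 and 6. The summed level of the 11 markers ran from 311 to 386 normalized reads at d0, from 1097 to 1122 at d4, from 1023 to 1489 at d7 and from 421 to 506 at d10. On the other days it lay between 413 (d20) and 856 (d1). The part of these transcripts in the changes of CTSS and GPNMB was not tested.

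Promoter sequence was available for 25 of the 33 genes (RefSeq, build GRCh38.p14), as windows from 250 bases before to 50 bases after each transcription start. LAMP2, CTSB, CTSK, CTSS, HEXA, PSAP, ASAH1 and ATP6V1H had no entry. Because TFEB is itself a member, the windows were searched on both strands for TCACGTGA, a palindrome around the E-box CACGTG that TFEB is known to bind. It was present in 5 of the 25 genes, against 1.18% of the 27305 gene symbols with a window and 11 of the 110 further lysosome and autophagy genes with a window. Because many lysosome genes are known to carry such an element, an excess over all symbols was likely beforehand. The stretches below run 5′ to 3′ on the strand of the gene, with the palindrome in capitals. They are shown because GAA and LAMP1 were called higher and MCOLN1 and ATP6V0D1 lower at d15, while CTSA was not called. At d7, GAA, CTSA, LAMP1 and ATP6V0D1 were called higher and MCOLN1 was not called.
GAA: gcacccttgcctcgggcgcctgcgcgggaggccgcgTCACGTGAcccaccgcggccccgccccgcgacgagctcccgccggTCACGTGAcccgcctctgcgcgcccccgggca
CTSA: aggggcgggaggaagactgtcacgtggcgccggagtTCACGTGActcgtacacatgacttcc
LAMP1: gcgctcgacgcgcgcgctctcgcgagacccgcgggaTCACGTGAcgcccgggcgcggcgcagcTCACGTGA
MCOLN1: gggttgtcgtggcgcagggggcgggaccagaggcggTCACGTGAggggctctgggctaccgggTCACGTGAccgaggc
ATP6V0D1: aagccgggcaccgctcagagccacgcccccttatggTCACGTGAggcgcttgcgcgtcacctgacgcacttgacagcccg
They lie at chr17:80101468-80101580 (plus strand), chr20:45891273-45891334 (plus strand), chr13:113297174-113297244 (plus strand), chr19:7522546-7522623 (plus strand) and chr16:67481174-67481253 (minus strand). GAA, LAMP1 and MCOLN1 held 2 copies each, and the first copy began between 77 bases (GAA) and 26 bases (CTSA) before the start. The shorter E-box CACGTG, which the palindrome contains, was present in 8 of the 25 genes (32.0%, against 8.77% of all symbols), the further genes being CD63, CTSD and NEU1.

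A related element, TCATGTGA (reverse complement TCACATGA), is known as the M-box and is bound by MITF. It was found in 4 of the 25 genes, against 1.24% of all symbols and 11 of the 110 further genes. CD63 had 8 windows and therefore more chances of a match than a gene with 1, such as TPP1. The stretches are shown because GPNMB had the widest range of means over the days and TPP1, GRN and CD63 were higher at d15, and the capitals mark each copy on either strand.
TPP1: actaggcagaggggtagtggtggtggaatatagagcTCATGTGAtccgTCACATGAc
GRN: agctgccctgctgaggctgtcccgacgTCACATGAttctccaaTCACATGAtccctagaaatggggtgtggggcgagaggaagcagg
GPNMB: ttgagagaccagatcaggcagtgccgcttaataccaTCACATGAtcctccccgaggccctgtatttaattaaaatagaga
CD63: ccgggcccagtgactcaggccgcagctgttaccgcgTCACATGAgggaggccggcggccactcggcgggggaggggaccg
They lie at chr11:6619423-6619479 (minus strand), chr17:44345052-44345138 (plus strand), chr7:23246676-23246755 (plus strand) and chr12:55729069-55729148 (minus strand). A match is a stretch of letters in these windows, and binding was not measured.

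The lysosome genes did not move as a block during EMT. They were mixed at d1, mostly higher at d4 and d7, mixed again at d10, mostly higher at d15 and partly higher at d20. With limma and Benjamini-Hochberg adjustment at 0.05, 9 of 33 were higher at d1 (background 31.3% of all genes tested) and 11 were lower (background 28.5%). At d4, 20 were higher (36.9% of all genes) and 4 lower (35.3%). At d7, 26 were higher (34.6%) and 2 lower (32.6%), and without the third d7 library the counts were 28 and 3. At d10, 11 were higher (37.0%) and 12 lower (30.7%). The d15 cells had 24 higher (39.2%) and 6 lower genes (37.3%). The d20 cells had 16 higher (32.5%) and 5 lower genes (30.2%). The shares of members that were higher were therefore 60.6% at d4, 78.8% at d7 and 72.7% at d15, each well above its background, whereas those of 27.3% at d1 and 33.3% at d10 were near it.

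The median log2 fold change of the 33 genes against d0 was 0.00 (d1), 0.36 (d4), 0.39 (d7), -0.04 (d10), 0.53 (d15) and 0.16 (d20), and that of all genes tested lay between 0.00 and 0.03. Without the third d7 library the d7 median was 0.44. Most changes were small. Changes of at least 2-fold were called at d1 in 4 members (10.3% of all genes), at d4 in 4 (14.7%), at d7 in 4 (11.7%), at d10 in 3 (14.3%), at d15 in 4 (20.3%) and at d20 in 3 (12.2%), which are shares near or under the background. Without the third d7 library there were 5 such genes at d7. Rescaling each library to the same total moved the median of all genes against d0 by -0.23 (d10) to -0.16 (d15), and with it the balance of the calls. On d1 it gave 6 higher and 19 lower genes, on d4 15 and 8, on d7 21 and 5, on d10 7 and 22, and on d20 11 and 11. Quantile normalization gave 7 higher and 15 lower at d1, 8 and 18 at d10, and 13 and 7 at d20. Higher genes were 31.8%, 30.8% and 65.0% of the called members there, and 42.2%, 46.3% and 41.9% of all called genes. The excess of higher over lower calls at d4, d7 and d15 was present under each of these scalings. At d20 equal totals gave as many higher as lower members, while 28.2% of all called genes were higher. The median at d20 was then -0.04 for the members and -0.20 for all genes. In these bulk libraries, fewer cells with a transcript and less of it per cell cannot be told apart.

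**Figure D1:**
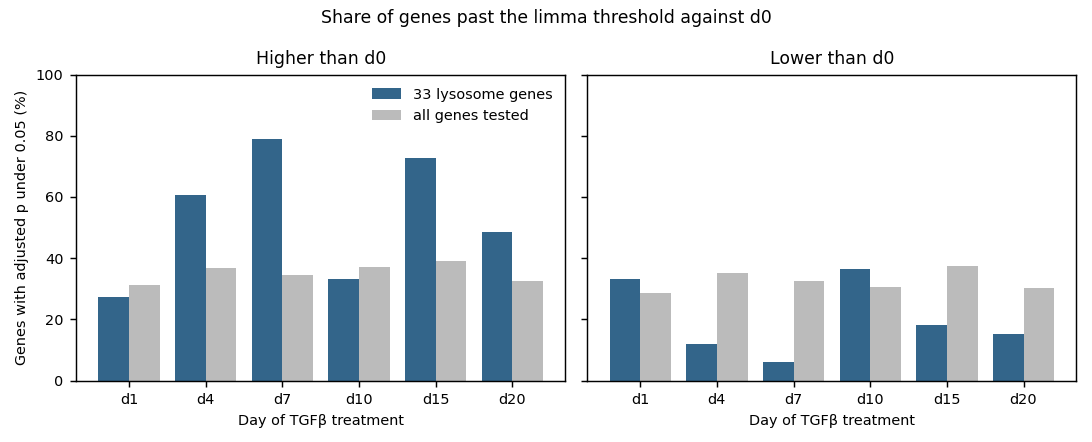
Bars show the percentage of genes with a limma adjusted p under 0.05 on each day of TGFβ treatment against d0 (left, higher; right, lower), for the 33 lysosome genes (blue) and all 13343 genes tested (grey). The blue bars for higher genes reach 60.6% at d4, 78.8% at d7 and 72.7% at d15, above grey bars of 36.9%, 34.6% and 39.2%.

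Neighbouring late timepoints differed from each other. Between d10 and d15, 23 of the 33 genes rose (39.3% of all genes tested) and 7 fell (40.5%), with a median log2 fold change of 0.46. Between d15 and d20, 21 fell (36.3%) and 9 rose (37.7%), with a median of -0.33. These 2 comparisons share the d15 libraries. By the means, 14 of the 33 genes had their highest timepoint at d15 (22.9% of all genes tested), 7 had it at d7 (8.69%), 5 at d4 (13.3%) and 1 at d0 (19.3%). Without the third d7 library, 11 genes had it at d15 (20.6%) and 11 at d7 (12.5%). The lowest timepoint was d10 for 10 genes (17.7%), d0 for 9 (22.9%), d1 for 6 (7.19%) and d15 for 5 (25.9%).

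Many of the members fall under a pair of descriptions that were chosen after the values were seen. In the first, all treated libraries lay above all untreated ones, which held for LAMP2, CD63, CTSB, CTSS, CTSZ, PSAP, NPC1, NPC2 and GRN, 9 of 33 genes or 27.3%, against 14.6% of all genes tested. For CD63, CTSB, CTSS, CTSZ and NPC2, 5 of the 33 genes, this was also so with equal totals (8.78% of all genes) and with quantile normalization (12.1%). With quantile normalization the share of members was thus near that of all genes. The reverse, all treated libraries below all untreated ones, held for ATP6V0A1 alone among the 33 (9.98% of all genes). In the second, the means at d4, d7 and d15 all lay above those at d1, d10 and d20, which held for 17 of 33 genes or 51.5%, against 23.7% of all genes tested. These were LAMP2, SCARB2, CTSB, CTSD, CTSH, CTSK, TPP1, GAA, GUSB, HEXA, NEU1, PSAP, ASAH1, ATP6V1H, ATP6AP1, TFEB and GPNMB. Both counts, 9 and 17, were the same without the third d7 library. The opposite order held for CTSZ, GLA and ATP6V0D1, 3 genes or 9.09%, against 24.8% of all genes.

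**Figure D2:**
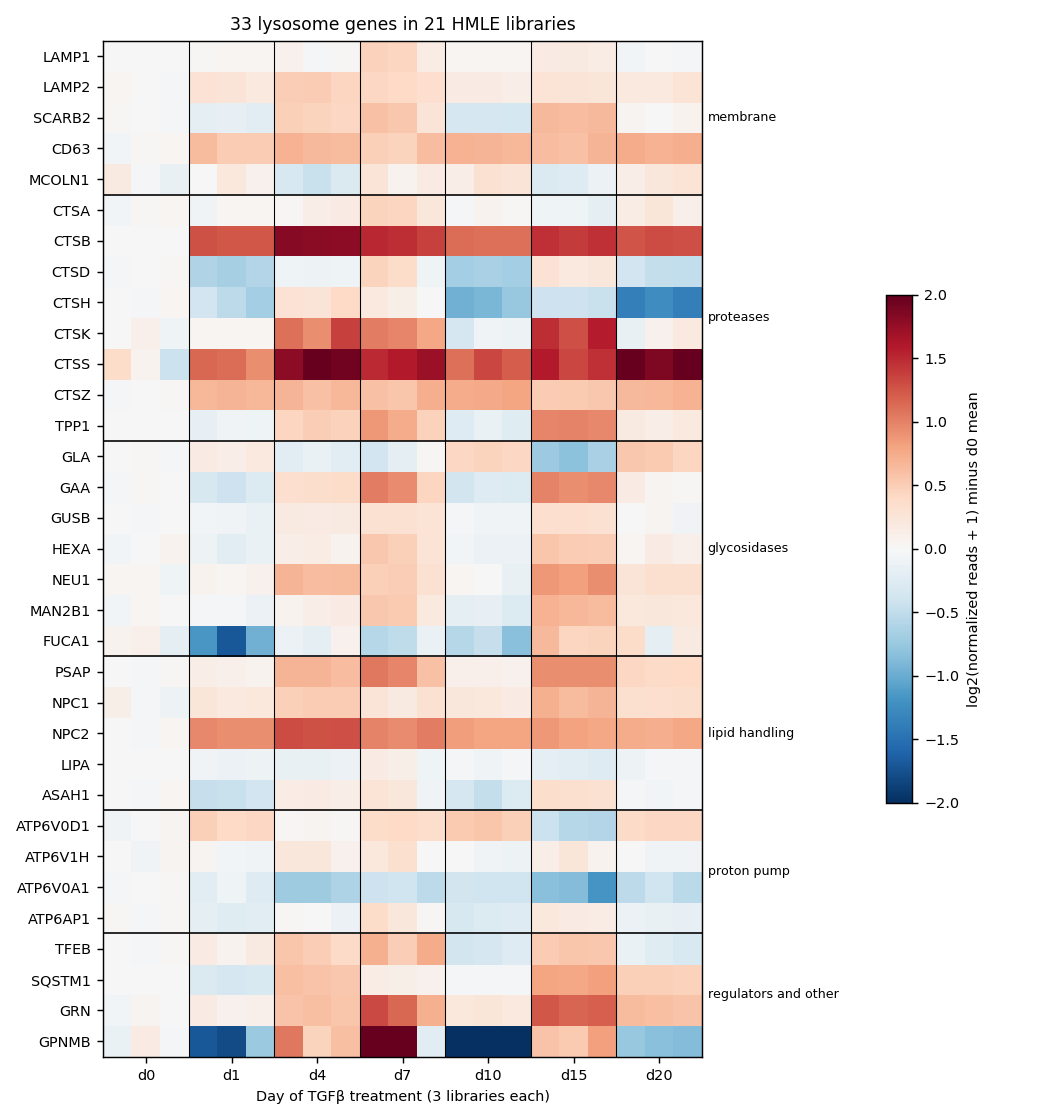
Each row is a lysosome gene, grouped by role, and each column a library, ordered by day of TGFβ treatment with 3 libraries per timepoint. Colour gives log2(normalized reads + 1) minus the mean of the d0 libraries, and values beyond 2 or -2 take the end colour. CTSB, CTSS and NPC2 are red on every treated day, while GAA, TPP1 and CTSK are red at d4, d7 and d15 and the third d7 library is paler than the other d7 libraries for GAA and TPP1.

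Other gene lists also changed over the days. The summed level of 6 cycling genes (MKI67, TOP2A, CCNB1, BIRC5, PCNA and MCM2) was between 46920 and 48505 (d0), 36480 and 38203 (d1), 27976 and 29223 (d4), 32845 and 43837 (d7), 41768 and 42844 (d10), 16250 and 16628 (d15), and 47062 and 48635 (d20). It was thus lowest at d15, where most lysosome genes were high, and at d7 its highest value was that of the third library. The 7 basal epithelial markers summed to a mean of 364019 (d0), 319390 (d1), 314303 (d4), 589674 (d7), 228151 (d10), 526713 (d15) and 286834 (d20). They were highest at d7 and d15, lowest at d10, and below the untreated level at d4, when most lysosome genes were higher, and at d7 the third library had the lowest sum, 362088. The part of cell division or of basal identity in the changes of the lysosome genes was not tested.

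**Figure D3:**
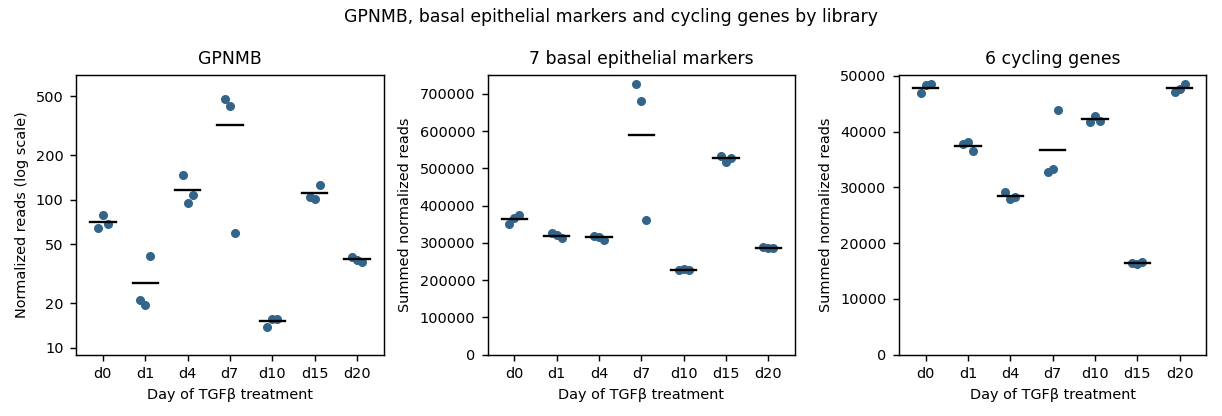
Points are libraries and lines are timepoint means, by day of TGFβ treatment. Normalized reads of GPNMB (left, log scale) reach 477 and 427 in the first and second d7 libraries and 59.6 in the third. The summed basal epithelial markers (middle) peak at d7 and d15, and the summed cycling genes (right) are lowest at d15, between 16250 and 16628.

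Of the 5 membrane proteins 4 were higher (39.2% of all genes tested) and 1 lower (37.3%) at d15. CD63, a tetraspanin of late endosomes, lysosomes and exosomes, was raised throughout. CD63 had 4473, 4680 and 4736 normalized reads at d0, 7164, 6582 and 6610 (d1), 7456, 7286 and 7173 (d4), and 6422, 6313 and 7063 (d7). Its later values were 7494, 7411 and 7301 (d10), 7096, 6921 and 7407 (d15), and 7743, 7525 and 7663 (d20). No treated library overlapped the untreated ones, and the level was nearly flat after d1. The log2 fold change against d0 was 0.55 ± 0.04 (SE) at d1 and 0.72 ± 0.04 at d20 (limma, Benjamini-Hochberg adjusted p = 3.09e-10 and 2.33e-12). LAMP2, which also serves as a receptor for chaperone-mediated autophagy, had 3662 ± 74.1 normalized reads in untreated cells (SD, n = 3), 5107 ± 139 at d4 and 4270 ± 128 at d20. Its rise at d10, a log2 fold change of 0.15, turned into a called decrease with equal totals and changed sign with quantile normalization. The LAMP2 rise at d20, 0.22, did not pass with equal totals (0.02) or quantile normalization (0.08). That at d1, 0.25, did not pass with equal totals (0.06).

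LAMP1, the other abundant lysosomal membrane glycoprotein, stood at 4739 ± 47.2 at d0, 6040 ± 693 at d7 and 5327 ± 64.1 at d15, and its log2 fold change was 0.34 at d7 and 0.17 at d15 (limma adjusted p = 7.34e-06 and 0.00653), and 0.44 at d7 without the third d7 library. SCARB2, the receptor that carries glucocerebrosidase to lysosomes, had means of 4297 (d0), 5841 (d4), 5936 (d7), 3394 (d10), 6689 (d15) and 4418 (d20). From d10 to d15 it rose by 0.98 ± 0.05 on the log2 scale (limma adjusted p = 6.1e-13). MCOLN1, a calcium channel of the lysosomal membrane and a carrier of the E-box palindrome printed above, went the other way, with 189 ± 21.6 (d0), 147 ± 8.9 (d4), 221 ± 13.9 (d10) and 161 ± 10.1 (d15). Its log2 fold change was -0.35 ± 0.09 at d4 and -0.22 ± 0.09 at d15 (limma adjusted p = 0.00185 and 0.0348). LAMP1 and MCOLN1, each with 2 copies of the palindrome, thus moved in opposite directions at d15. The d15 call of LAMP1 was lost with equal totals (log2 fold change 0.01) and that of MCOLN1 with DESeq2 and with only the d0 and d15 libraries in the fit (-0.22 with each).

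Of the 8 proteases 6 were higher at d4, 7 at d7 and 6 at d15, against 0, 0 and 1 lower, and the d7 counts were the same without the third d7 library. The shares of all genes tested on these days were 36.9%, 34.6% and 39.2% higher, and 35.3%, 32.6% and 37.3% lower. CTSB, cathepsin B, a cysteine protease with endopeptidase and exopeptidase activity, had 3718, 3650 and 3696 normalized reads at d0, 8928, 8709 and 8689 (d1), 13065, 12902 and 12809 (d4), and 10492, 10247 and 9481 (d7). Its values were 7958, 7887 and 7882 (d10), 10194, 9731 and 10107 (d15), and 8839, 9138 and 9026 (d20). Every treated library exceeded every untreated one by a wide margin, with the peak at d4. The log2 fold change was 1.81 ± 0.03 at d4, a 3.5-fold rise, and 1.29 ± 0.03 at d20 (limma adjusted p = 7.25e-21 and 2.55e-18).

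CTSS, cathepsin S, a cysteine protease that stays active at neutral pH and is best known in antigen presenting cells, was low and rose as well. CTSS had 52.5, 42.4 and 29.7 normalized reads at d0, 91.0, 89.2 and 78.4 (d1), 142, 178 and 157 (d4), and 116, 123 and 136 (d7). It had 87.6, 104 and 94.8 (d10), 123, 104 and 113 (d15), and 180, 150 and 168 (d20). The highest levels were at d4 and d20, and the untreated libraries lay below all others. Its log2 fold change was 1.94 ± 0.15 at d4 and 2.01 ± 0.15 at d20 (limma adjusted p = 2.3e-10 and 1.76e-10), a 4.03-fold rise by d20. Of the 11 macrophage and leukocyte markers, 5 were at 1 read or less in every library, whereas CSF1R, CD14, LYZ and FCER1G reached 1383, 59, 27 and 9 reads. Their summed mean level was 344 normalized reads at d0, 1113 at d4 and 449 at d20, and its part in the change of CTSS was not tested.

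CTSZ, cathepsin Z, a carboxypeptidase, shifted up at d1 and stayed there, from 2207 ± 46.0 (d0) to 3508 ± 27.5 (d1) and 3514 ± 69.0 (d20), with log2 fold changes between 0.53 (d15) and 0.76 (d10).

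CTSK, cathepsin K, the collagenase of osteoclasts, showed the d4, d7 and d15 pattern. CTSK had 73.9, 79.7 and 70.2 normalized reads at d0, 76.3, 76.9 and 76.4 (d1), 161, 143 and 194 (d4), and 152, 148 and 128 (d7). It had 58.7, 70.9 and 69.4 (d10), 209, 183 and 222 (d15), and 66.8, 78.9 and 85.2 (d20). The libraries of d4, d7 and d15 lay above all those of the other timepoints, with no overlap, and the d20 libraries overlapped the untreated ones. The log2 fold change was 1.13 ± 0.12 at d4 and 1.44 ± 0.12 at d15 (limma adjusted p = 4.4e-08 and 7.26e-10), and 0.04 ± 0.12 at d20 (limma adjusted p = 0.799). Among 4 osteoclast markers, 3 (CALCR, OCSTAMP and DCSTAMP) were at 1 read or less in every library. ACP5, the tartrate-resistant acid phosphatase, was detected, with means of 118 normalized reads at d0, 102 at d4, 177 at d7, 65.5 at d10 and 128 at d15. The part of such cells in the change of CTSK was not tested.

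CTSH, cathepsin H, an aminopeptidase that also processes surfactant proteins, ended below its starting level. CTSH had 529, 520 and 546 normalized reads at d0, 406, 370 and 330 (d1), 647, 634 and 703 (d4), and 611, 577 and 533 (d7). It then had 273, 282 and 314 (d10), 397, 397 and 389 (d15), and 205, 223 and 205 (d20). The d4 libraries were above the untreated ones and the d1, d10, d15 and d20 libraries below them. The d4 rise, a log2 fold change of 0.31, did not pass with equal totals (0.12). By d20 it had fallen by 1.33 on the log2 scale (SE 0.07, limma adjusted p = 9.74e-13), the lowest level of the course.

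The remaining proteases rose at d7. TPP1, an aminopeptidase that removes tripeptides and whose promoter held 2 copies of the M-box, went from 806 ± 7.66 (d0) to 1107 ± 27.2 (d4), 1313 ± 187 (d7), 694 ± 32.2 (d10), 1585 ± 20.7 (d15) and 905 ± 22.5 (d20). Its log2 fold change between d10 and d15 was 1.19 ± 0.07 (limma adjusted p = 7.19e-13). CTSD, cathepsin D, the main aspartic protease of lysosomes, had means of 4178 (d0), 2726 (d1), 3919 (d4), 5002 (d7), 2624 (d10), 4940 (d15) and 3052 (d20). CTSD was therefore lower than in untreated cells at d1, d10 and d20 (log2 fold changes of -0.62, -0.67 and -0.45) and higher at d7 and d15 (0.24 at each, limma adjusted p = 0.0124 and 0.0106). Without the third d7 library its log2 fold change at d7 was 0.41. With equal totals its rises at d7 and d15 did not pass (log2 fold changes of 0.05 and 0.08). The d7 rise also did not pass with quantile normalization (0.18, limma adjusted p = 0.0752) or with only the d0 and d7 libraries in the fit (limma adjusted p = 0.147). CTSA, a carboxypeptidase that protects NEU1 and beta-galactosidase, peaked at d7 with 1460 ± 121 against 1130 ± 38.7 at d0, and its log2 fold change at d15 was -0.12 (limma adjusted p = 0.0632).

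**Figure D4:**
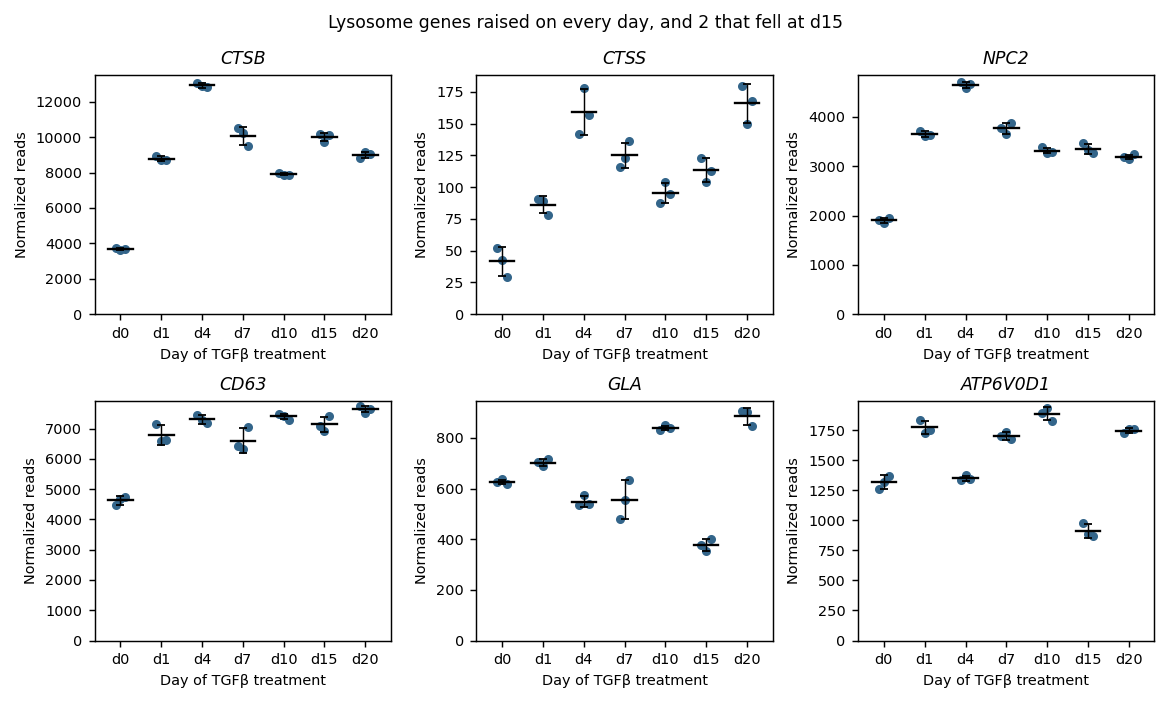
Normalized reads by day of TGFβ treatment for 4 genes above d0 on every treated day (CTSB, CTSS, NPC2 and CD63) and 2 genes that fell at d15 (GLA and ATP6V0D1). Points are libraries, bars the timepoint mean and whiskers the SD of 3 libraries. CTSB peaks at d4 between 12809 and 13065, and GLA and ATP6V0D1 have their lowest means, 377 and 910, at d15.

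Of the 7 glycosidases 5 were higher and 1 lower at d7 (5 and 2 without the third d7 library), and 6 were higher at d15, with GLA the exception. The shares of all genes tested were 34.6% higher and 32.6% lower at d7, and 39.2% and 37.3% at d15. GAA, which degrades glycogen in lysosomes and carries 2 copies of the palindrome, had 2710 ± 31.8 normalized reads at d0, 2146 ± 102 (d1), 3472 ± 34.2 (d4), 4781 ± 999 (d7), 2198 ± 83.5 (d10), 5273 ± 132 (d15) and 2879 ± 154 (d20). The d7 libraries were 5496, 5209 and 3639, and all were above the d4 libraries. The log2 fold change of GAA was 0.96 ± 0.09 at d15 (limma adjusted p = 4.18e-09) and 0.09 at d20 (limma adjusted p = 0.427). At d4 it was 0.36, which did not pass with equal totals (0.16). NEU1, a sialidase, rose from 663 ± 33.8 at d0 to 1036 ± 26.5 at d4 and 1215 ± 43.9 at d15, with 649 ± 45.1 at d10 between them. HEXA, the alpha subunit of beta-hexosaminidase, and MAN2B1, lysosomal alpha-mannosidase, rose by 0.52 and 0.67 on the log2 scale at d15 (limma adjusted p = 2.46e-08 and 2.91e-09). GUSB, beta-glucuronidase, changed little, with means between 1029 at d1 and 1362 at d15, and reads from its pseudogenes may be included.

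GLA, alpha-galactosidase A, which removes galactose from glycolipids, ran against these enzymes. GLA had 624, 636 and 618 normalized reads at d0, 832, 849 and 838 (d10), 378, 355 and 399 (d15), and 906, 902 and 846 (d20). The d15 libraries were below all others, and the d10 and d20 libraries were above all others. Between d10 and d15 it fell by 1.15 on the log2 scale (SE 0.07, limma adjusted p = 2.03e-12), while GAA rose by 1.26 (SE 0.09).

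FUCA1, which removes fucose, was low and fell at d1. FUCA1 had 57.9, 59.4 and 48.5 normalized reads at d0, 24.1, 16.4 and 27.8 (d1), 50.5, 47.7 and 58.8 (d4), and 36.9, 38.6 and 50.3 (d7). It had 36.8, 39.8 and 30.3 (d10), 86.7, 74.2 and 75.6 (d15), and 71.0, 48.4 and 62.7 (d20). The d1 libraries were the lowest of the course and the d15 libraries the highest, without overlap with any other timepoint. It fell by 1.27 on the log2 scale at d1 (SE 0.19, limma adjusted p = 6.66e-06). Its rise at d15, a log2 fold change of 0.51 ± 0.19 (limma adjusted p = 0.0195), did not pass with equal totals or quantile normalization (0.35 with each).

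Of the 5 lipid handling proteins 4 were higher (39.2% of all genes tested) and 1 lower (37.3%) at d15. NPC2, which binds cholesterol in the lumen and passes it to NPC1, rose at once and stayed up. NPC2 had 1901, 1853 and 1954 normalized reads at d0, 3719, 3621 and 3625 (d1), 4709, 4578 and 4655 (d4), and 3780, 3645 and 3873 (d7). It had 3378, 3275 and 3287 (d10), 3460, 3331 and 3268 (d15), and 3177, 3154 and 3241 (d20). All treated libraries were above the untreated ones, with the highest at d4. Its log2 fold change was 1.29 ± 0.03 at d4, a 2.44-fold rise, and 0.75 ± 0.03 at d20 (limma adjusted p = 1.47e-18 and 2.08e-14). NPC1, the membrane protein that exports this cholesterol, was highest at d15, with 3341 ± 100 against 2095 ± 162 at d0 (log2 fold change 0.68 ± 0.05, limma adjusted p = 1.15e-11).

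PSAP, the precursor of the saposins that activate sphingolipid breakdown, combined both descriptions. PSAP had 10874, 10782 and 11058 normalized reads at d0, 17429, 17522 and 16637 (d4), 22546, 21566 and 16436 (d7), 11650, 11652 and 11600 (d10), and 20812, 20674 and 20720 (d15). The d10 libraries came back to near the untreated level and the d15 libraries were almost as high as the first and second d7 libraries. For PSAP the log2 fold change was 0.93 ± 0.07 at d15 and 0.40 ± 0.07 at d20 (limma adjusted p = 7.76e-11 and 3.9e-05). ASAH1, acid ceramidase, was lower at d1 and d10 (log2 fold changes of -0.43 and -0.36) and higher at d15 (0.33, limma adjusted p = 8.71e-05). LIPA, lysosomal acid lipase, which frees cholesterol from its esters, was lower at d4 and d15 (log2 fold changes of -0.13 and -0.22, limma adjusted p = 0.0149 and 0.000231).

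**Figure D5:**
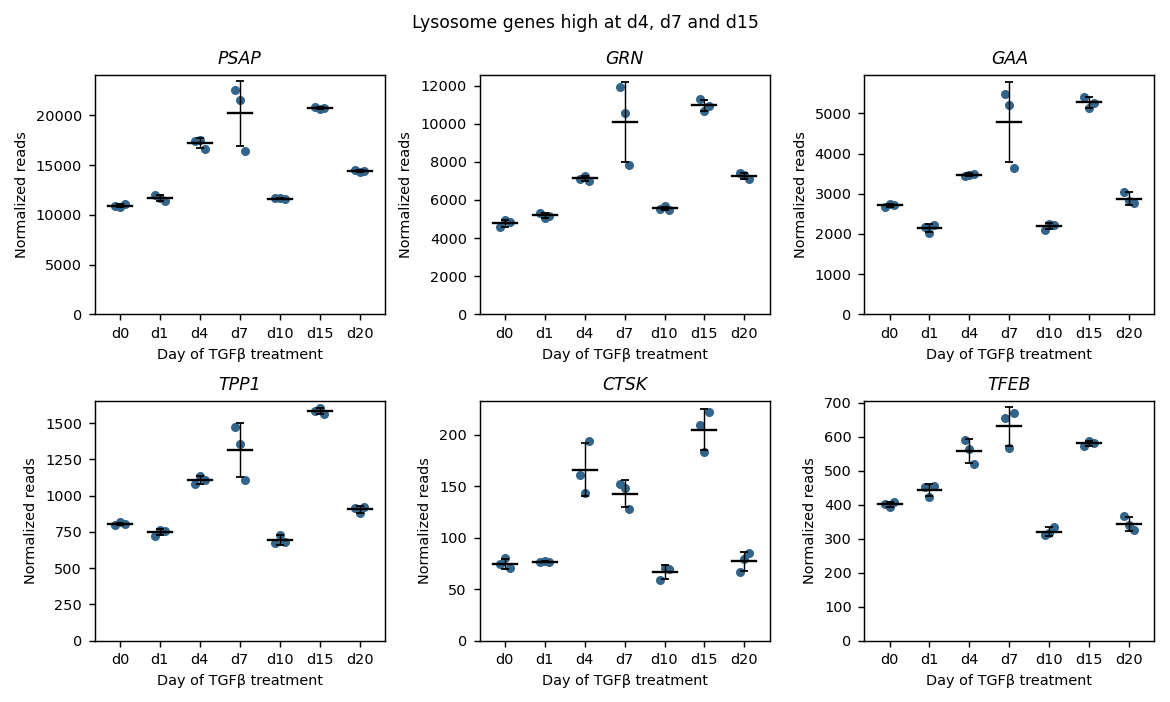
Normalized reads by day of TGFβ treatment for PSAP, GRN, GAA, TPP1, CTSK and TFEB, with points for libraries, bars for timepoint means and whiskers for the SD of 3 libraries. In each panel the means of d4, d7 and d15 exceed those of d1 and d10. GRN means run from 4784 at d0 to 10962 at d15.

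Of the 4 proton pump subunits 3 were higher (34.6% of all genes tested) and 1 lower (32.6%) at d7, also without the third d7 library. At d15, 1 was higher (39.2%) and 2 were lower (37.3%). ATP6V0A1, the large membrane subunit that helps target the pump, had 839, 842 and 866 normalized reads at d0, 723, 796 and 710 (d1), 521, 518 and 554 (d4), and 640, 644 and 592 (d7). It had 657, 645 and 641 (d10), 474, 467 and 376 (d15), and 588, 641 and 585 (d20). Every treated library was below the untreated ones, most of all at d15. It fell by 0.96 on the log2 scale at d15 and by 0.49 at d20 (SE 0.07 for each, limma adjusted p = 6.23e-11 and 3.59e-06).

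ATP6V0D1, a stalk subunit whose promoter holds the palindrome, was above the untreated level on most days and fell at d15. ATP6V0D1 had 1256, 1322 and 1372 normalized reads at d0, 1888, 1937 and 1828 (d10), 975, 883 and 872 (d15), and 1722, 1758 and 1757 (d20). Its d15 libraries were below all others. The change from d10 to d15 was a fall by 1.05 on the log2 scale and that from d15 to d20 a rise of 0.94 (SE 0.04 for each, limma adjusted p = 6.44e-15 and 7.17e-14). ATP6AP1, an accessory subunit, was lower at d10 and higher at d15, with 1726 ± 45.3 at d0, 1416 ± 37.9 at d10 and 1947 ± 38.2 at d15, a rise against d0 that equal totals reduced to a log2 fold change of 0.01. ATP6V1H, a subunit of the cytosolic part, stayed between means of 1012 at d10 and 1193 at d4. Of the 5 genes with the palindrome, GAA and LAMP1 were thus higher at d15, MCOLN1 and ATP6V0D1 were lower, and CTSA did not pass the test. At d7, GAA, CTSA, LAMP1 and ATP6V0D1 were called higher, with log2 fold changes of 0.80, 0.37, 0.34 and 0.37. MCOLN1 did not pass at d7 (0.16). Without the third d7 library the values of these genes, in the same order, were 0.98, 0.44, 0.44, 0.39 and 0.16. The d15 calls of LAMP1 and MCOLN1 were lost in some settings, as given above.

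Among the 4 regulators and other genes 3 were higher (39.2% of all genes tested) and 0 lower (37.3%) at d15. TFEB codes for the transcription factor that activates many lysosome genes. TFEB had 403, 393 and 408 normalized reads at d0, 590, 565 and 521 (d4), 656, 566 and 670 (d7), 310, 316 and 335 (d10), 573, 589 and 581 (d15), and 367, 340 and 325 (d20). The libraries of d4, d7 and d15 were all above the untreated ones and those of d10 and d20 all below. The log2 fold change was 0.65 ± 0.07 at d7 and 0.53 ± 0.07 at d15, and -0.32 ± 0.07 at d10 and -0.22 ± 0.07 at d20 (limma adjusted p = 2.49e-08, 2.49e-07, 0.000201 and 0.00606), and 0.60 at d7 without the third d7 library. TFEB activity is set mainly by its location in the cell, which was not measured. TFE3, its relative, was instead higher on every treated day, with 1100 ± 60.9 at d0 and 1911 ± 36.7 at d20 (log2 fold change 0.80, limma adjusted p = 4e-12), and MITF was low, with means between 13.9 and 26.3.

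GRN, progranulin, a secreted protein that is cut into granulins in lysosomes, rose most at d7 and d15. GRN had 4587, 4947 and 4818 normalized reads at d0, 5334, 5074 and 5148 (d1), 7116, 7278 and 6990 (d4), and 11936, 10554 and 7825 (d7). It had 5531, 5662 and 5488 (d10), 11270, 10688 and 10927 (d15), and 7407, 7291 and 7075 (d20). All d15 libraries and the first and second d7 libraries lay above all other libraries. The log2 fold change was 1.06 ± 0.09 at d7, 1.20 ± 0.09 at d15 and 0.60 ± 0.09 at d20 (limma adjusted p = 7.36e-10, 4.42e-11 and 3.46e-06), and without the third d7 library it was 1.23 at d7.

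GPNMB, a membrane glycoprotein that marks macrophages and melanocytes and whose promoter holds the M-box, had the widest range. GPNMB had 64.1, 78.9 and 68.3 normalized reads at d0, 20.9, 19.5 and 41.7 (d1), 147, 95.4 and 107 (d4), and 477, 427 and 59.6 (d7). It had 13.9, 15.6 and 15.7 (d10), 105, 101 and 125 (d15), and 41.3, 38.9 and 38.2 (d20). The d4 and d15 libraries were above the untreated ones and those of d1, d10 and d20 below, and the d7 libraries fell on both sides. In the fit with all libraries the log2 fold change was -1.41 ± 0.47 at d1, 1.70 ± 0.47 at d7 and -2.15 ± 0.47 at d10 (limma adjusted p = 0.014, 0.0033 and 0.000403), and the change at d1 did not pass with edgeR (-1.37). The d7 rise did not pass when only the d0 and d7 libraries entered the fit (limma adjusted p = 0.074). Leaving out the third d7 library lowered the SE to 0.19 for the other days and made every day pass, with 2.67 ± 0.21 at d7 and -2.15 ± 0.19 at d10 (limma adjusted p = 1.46e-14 and 2.73e-13), and with 0.70 at d4, 0.64 at d15 and -0.81 at d20 (limma adjusted p = 0.000987, 0.00209 and 0.000208). Of 4 melanocyte markers, TYR and DCT were at 3 reads or fewer in every library, whereas MLANA and PMEL reached 20 and 84 reads. The 4 summed to means of 60.6 normalized reads at d0, 61.1 at d7, 35 at d10 and 80.4 at d15, and their part in the change of GPNMB was not tested.

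SQSTM1, the p62 receptor that brings ubiquitinated cargo to autophagosomes and is itself degraded there, had 3448 ± 13.8 normalized reads at d0, 2790 ± 49.4 (d1), 5118 ± 108 (d4), 3745 ± 87.7 (d7), 3382 ± 23.4 (d10), 5986 ± 108 (d15) and 4776 ± 14.8 (d20). Its log2 fold change was 0.57 ± 0.03 at d4, 0.80 ± 0.03 at d15 and 0.47 ± 0.03 at d20 (limma adjusted p = 2.11e-13, 4.43e-16 and 6.67e-12). Unlike TFEB it was still raised at d20. Its small rise at d7, 0.12, became a called decrease with equal totals and did not pass with quantile normalization or with only the d0 and d7 libraries in the fit. It was 0.13 without the third d7 library.

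A further 147 genes of the lysosome and of autophagy, in 7 lists, placed the 33 in their pathway, and 134 of them were tested. Of all genes tested, 36.9% were higher and 35.3% lower at d4, 34.6% and 32.6% at d7, and 37.0% and 30.7% at d10. The later shares were 39.2% and 37.3% at d15, and 32.5% and 30.2% at d20. Of 37 other hydrolases, 25 were higher and 3 lower at d7 (27 and 3 without the third d7 library), 13 higher and 13 lower at d10, and 22 higher and 9 lower at d15. Of 26 other lysosomal membrane proteins, 17 rose (39.3% of all genes tested) and 5 fell (40.5%) between d10 and d15. Of the 20 autophagy genes, 15 were higher at d4, d7 and d15 and 17 at d20, against 2, 1, 2 and 0 lower, and without the third d7 library 16 were higher and 1 lower at d7. At d10 the split was 10 higher and 7 lower. Of 16 other V-ATPase subunits, 5 were higher and 5 lower at d7 (6 and 4 without the third d7 library). At d15, 4 were higher and 9 lower, with a median log2 fold change of -0.19, against 0.40 for the other hydrolases, a difference that was not tested. The 11 genes of enzyme sorting, such as the mannose 6-phosphate receptors, were split, with 4 higher and 5 lower at d15. Of 17 genes that control lysosome gene expression or mTORC1, 6 were higher and 8 lower at d15. The 7 tested cathepsin inhibitors gave 2 higher and 4 lower at d15.

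Changes of at least 2-fold on some day were called in 23 of these 134 genes or 17.2%, under the 30.4% of all genes tested, and in 8 of the 33 lysosome genes or 24.2%. The 20 further genes with the largest change are named. LAPTM5, a lysosomal membrane protein mainly of blood cells, went from 30.2 ± 1.66 normalized reads at d0 to 675 ± 68.4 at d15 (log2 fold change 4.43 ± 0.09, limma adjusted p = 2.1e-20). The dipeptidyl peptidase CTSC rose by 1.61 on the log2 scale at d4, from 5034 ± 80.9 to 15410 ± 334. MANBA, IDUA, GM2A, CTSF and ARSA, enzymes or cofactors of glycan, lipid and protein breakdown, rose on their day of largest change by 1.86 at d4, 2.34 at d15, 1.43 at d15, 1.41 at d7 and 1.21 at d7. Without the third d7 library CTSF rose by 1.67 at d7, and the rise of ARSA also passed (limma adjusted p = 1.57e-21). CPVL, a carboxypeptidase, fell by 3.34 on the log2 scale at d15, and LAMP3 fell by 3.18 at d10. Among autophagy genes WIPI1 rose by 2.07 at d4, and ULK1, OPTN, GABARAPL1 and MAP1LC3A by 1.90, 1.65, 1.43 and 1.22 at d15. V-ATPase subunits ATP6V0E2 and ATP6V1E2 fell by 2.09 at d1 and 1.29 at d4, and ATP6V1G2 rose by 1.25 at d15 from 12.5 ± 3.07 normalized reads. The cathepsin inhibitor CST6, cystatin M, rose by 3.03 at d1 from 41.8 ± 3.18 to 349 ± 35.2. SERPINB13 fell by 3.85 at d10 from 986 ± 36.7 to 67.4 ± 2.89. SERPINB3 fell by 2.92 at d20, from 36.9 ± 3.56 to 6.8 ± 5.9, and can share reads with its close copy SERPINB4. At d4, CST6 was above and SERPINB13 below its untreated level (log2 fold changes of 2.85 and -1.27), and a relation of either to the cathepsins was not tested.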

How the data were processed

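RNA of HMLE cells was sequenced at 7 timepoints (3 libraries each). For every gene symbol and library the authors deposited a normalized read signal, which equals the reads over the library's size factor, rounded to 2 decimals. Low values gave back whole reads in all libraries, within 0.0075. The submitters' processing notes name STAR 2.7, Salmon 1.4 and hg19, with no role given, and strand use was not given in the sources used here. Column names give the timepoint but no replicate number.

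limma 3.58.1 (R 4.3.3; linear fit, contrasts and moderated statistics with a trend) was run on log2(value + 1) of the genes with a mean of at least 10, with all timepoints in the fit and Benjamini-Hochberg adjustment over all genes tested within a contrast, at 0.05. Fold changes are on that scale and understate changes of low genes. A gene was treated as at the floor at 3 reads or fewer, which covers counting error only. The fits were tested on simulated data. Other settings tried were a pseudocount of 10, no minimum mean, equal totals, quantile normalization, a fit of the compared groups alone, edgeR 4.0.16 (quasi-likelihood) and DESeq2 1.42.0 on the recovered reads, and fits that each lacked a library.

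The members and lists were chosen with earlier results of these data known. Values of every library are given for members that changed at least 2-fold (adjusted p under 0.05) on some day, and for the member with the largest called change of each role. Library values of PSAP, GLA, ATP6V0D1, TFEB and GAA were added after the values were seen. Genes of the other lists are named when they changed at least 2-fold, at most 20 of them. TFE3, MITF and marker genes are named in addition. Promoters came from RefSeq (GRCh38.p14) and are independent of the deposited build. Python 3.11.15 with matplotlib 3.10.9 made the figures.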

Additional observations from a re-analysis of the deposited data

How the results depend on the processing

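The counts of lysosome genes were compared over 662 values from the alternatives, of which 650 stayed within 1.5 times the reported count. Most values came from fits that lacked a library, often one outside the timepoints compared, which enters only through the shared spread. The limit also let 12 lower genes at d10 become 18 with quantile normalization, and 16 higher genes at d20 become 11 with equal totals. The share of 650 is therefore no measure of how firm a count is. Rescaling to the same total gave lower counts of 19 (d1), 8 (d4), 5 (d7), 22 (d10) and 11 (d20) and a higher count of 7 (d10), and the genes with all treated libraries above all untreated ones numbered 5 both there and with quantile normalization. With equal totals the higher share of all called genes was 26.7% (d1), 34.3% (d4), 31.7% (d7), 29.8% (d10) and 28.2% (d20). That rescaling moves the median of all genes against d0 by -0.23 to -0.16, and quantile normalization by -0.09 to -0.06. The 2 genes lower at d7, ATP6V0A1 and GLA, became 1 when only the compared groups entered the fit, and leaving out the first or second d0 library or the first d7 library also left 1, with a range of 1 to 3 over all libraries. Of 206 calls of single members, rescaling to the same total changed the sign of 11, of which SQSTM1 at d7 and LAMP2 at d10 were then called the other way. Quantile normalization changed the sign of 2 (LAMP2 at d10 and CD63 between d15 and d20), and the remaining 5 tool and filter settings changed none. Calls lost numbered 26 with equal totals, 22 with quantile normalization, 8 with edgeR, 7 with only the compared groups in the fit, 6 with DESeq2 and 4 with no filter on low values. For CTSB, CTSH, CTSK, CTSS, FUCA1, NPC2, GRN, GPNMB, CD63 and ATP6V0A1, the 10 members followed singly, all 182 alternative values on their day of largest change and at d20 where called kept their direction and passed the threshold. These members and days were picked for large called changes, so passing was likely beforehand. On days not followed some calls were lost, such as GPNMB at d1 and d7 and FUCA1 at d15.

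No paired analysis was possible because column names show only the timepoint, without a replicate number. Depth allowed tests of all 33 genes. FUCA1, CTSS, CTSK and GPNMB were the lowest members, with the widest standard errors. List counts and highest timepoints without the third d7 library were computed after seeing the data. The d7 values depend on the third d7 library, and 1 cell line and 1 untreated timepoint limit what the days can be compared with.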
